A study of Homo sapiens with 3 samples.

Results

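The MTAP and CDKN2A locus at 9p21 was described here through the chromatin loops listed at 3 neighbouring genes, MTAP, CDKN2A and CDKN2B. A loop was taken as a member when the outermost 5 kb of either end, read inward from the listed position, overlapped the body of 1 of these genes. This rule found 21 of the 279618 loops in the authors' deposited table. The locus was chosen by its class words, because MTAP stood out in earlier work on the same list for having all of its loops in the gained class. Its gained share is therefore a description and carries no test.

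The loops come from Hi-C, which crosslinks nuclei, cuts the DNA (here with DpnII) and counts how often distant sites end up in the same ligated fragment, in HCT116 colorectal carcinoma cells. There were 3 groups of 1 library each, and every group was p53-/-. Wild-type was the parental p53-/- line, ORC2 deletion was a single clone made from it with CRISPR/Cas9, and ORC2 rescue was a selected clone given ORC2 back on pLHCX. ORC2 is a subunit of the complex that marks replication origins, and the stated aim was to find changes of chromosome structure that depend on it. The deposited list is a single table with no column for any library. Each loop has a left position, a right position and a class word. The words are conserved_gain, conserved_lost and not_conserved, shortened here to gained, lost and not conserved. The libraries that these words compare are not named, so no direction relative to ORC2 is drawn. The not conserved class is not read as a set of stable loops, nor as loops without a gain in any library. The list holds no contact strength and no read depth, so depth is unknown and no spread between libraries could be given. Any correction for coverage is not given in the sources used here, and the part of DNA copy number in the classes was not tested.

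MTAP encodes methylthioadenosine phosphorylase, which recycles the by-product of polyamine synthesis into adenine and methionine. CDKN2A encodes p16INK4A and p14ARF from alternative first exons. The first inhibits the cyclin D kinases CDK4 and CDK6, and the second stabilises p53 by binding MDM2. CDKN2B encodes p15INK4B, a further inhibitor of the same kinases. The long noncoding RNA CDKN2B-AS1, also called ANRIL, runs in the opposite direction to CDKN2B and overlaps it, and has been linked to Polycomb repression of the locus. The genes are often deleted together in tumours.

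The 3 genes lie close together on chromosome 9 in hg38. MTAP occupies chr9:21802636-21941115 on the plus strand, CDKN2A chr9:21967752-21995324 on the minus strand and CDKN2B chr9:22002903-22009313 on the minus strand, per the RefSeq annotation of GRCh38.p14. Short promoter stretches are shown because the start of MTAP lay inside a gained loop end, whereas neither listed start of CDKN2A nor the start of CDKN2B lay inside any listed end. This contrast depends on the 5 kb width of an end. With 10 kb ends, the left end at 22000473 would also hold the start of CDKN2B. With the listed base alone, no end would hold the start of MTAP. Capitals mark a GC box (GGGCGG), searched on both strands, and for the second MTAP stretch a CCAAT box (CCAAT).
MTAP, chr9:21802511-21802540, plus strand: ggtctgcaaaagGGGCGGaacgcgggaact
MTAP, chr9:21802572-21802600, plus strand: ccacacaagcagCCAATccagctgtcccg
CDKN2A, chr9:21974877-21974906, minus strand: caccagagggtgGGGCGGaccgcgtgcgct
CDKN2B, chr9:22009366-22009395, minus strand: acagcggacaggGGGCGGagcctaaggggg

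The MTAP promoter, the downstream CDKN2A promoter and the CDKN2B promoter each held 2 GC box matches, of which 1 is shown. The first base of the motif shown lay 113 bp before the start of MTAP for the GC box and 52 bp before it for the CCAAT box, so the 2 matches do not overlap. The GC box shown lay 37 bp before the downstream CDKN2A start and 78 bp before the CDKN2B start. The upstream CDKN2A promoter held neither motif. The MTAP promoter also held a TATA box match (TATAAA, both strands) 215 bp before the start, which the CDKN2A and CDKN2B promoters did not. For comparison, GGGCGG occurred on either strand in 56.3% of 22183 RefSeq promoters of protein-coding genes, each running from 250 bases before to 50 bases after the start, CCAAT in 34.7% and TATAAA in 9.47%. A GC box was thus present with and without a 5 kb loop end at the start, and no binding was measured here.

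All 20 listed loops at MTAP were in the gained class and 0 were lost, in the authors' deposited table (exact 95% binomial interval of the gained share 83.2 to 100%, for counting error only). Over the whole list 1.96% of loops were gained and 0.196% were lost. The interval treats loops as independent, which neighbouring loops are not: all 20 joined into 1 region when loops whose ends both lay within 10 kb of another loop's were put together. MTAP supplied the left end of each of them, and never a right end. The loops were 414 to 442 kb long, with a median of 428 kb.

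The loops left MTAP from its 5' part alone. Their left ends took 6 positions, which began 3.44 kb before the start of the gene (21799199) and ended with a 5 kb stretch reaching 22.8 kb into it (21825440). This stretch covers 16.5% of the gene body. No loop was listed from the remaining 116 kb of the gene. The first left end, at 21799199, holds the start of MTAP and had 1 loop. The next, 1.15 kb inside the gene, had 3 loops. The ends at 5.31, 9.29 and 13.9 kb had 5, 6 and 4 loops, and the last, at 17.8 kb, had 1. Loop number was thus highest near the middle of the stretch rather than at the start of the gene. A tubulin pseudogene, TUBB8P1, lies in this stretch (chr9:21811489-21812362), and the ends of 11 of the 20 loops overlapped it. Pseudogenes share sequence with other loci, and the part of read mapping in the loops was not tested.

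The right ends of the MTAP loops lay between genes. They took 6 positions from 22225814 to 22249870, so that their 5 kb stretches spanned chr9:22220815-22249870. No RefSeq gene overlapped any of them. CDKN2B-AS1 ended 92.7 kb before this stretch, and DMRTA1, a transcription factor gene, began 197 kb after it. The position 22240263, which lies 438 kb from the start of MTAP, was joined to all 6 left ends. Its neighbours at 22235635 and 22244927 had 4 loops each, 22230796 had 3, 22249870 had 2 and 22225814 had 1. Of the 36 possible pairs of left and right positions, 20 were listed, and these formed a compact patch around the pair of fullest ends.

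**Figure D1:**
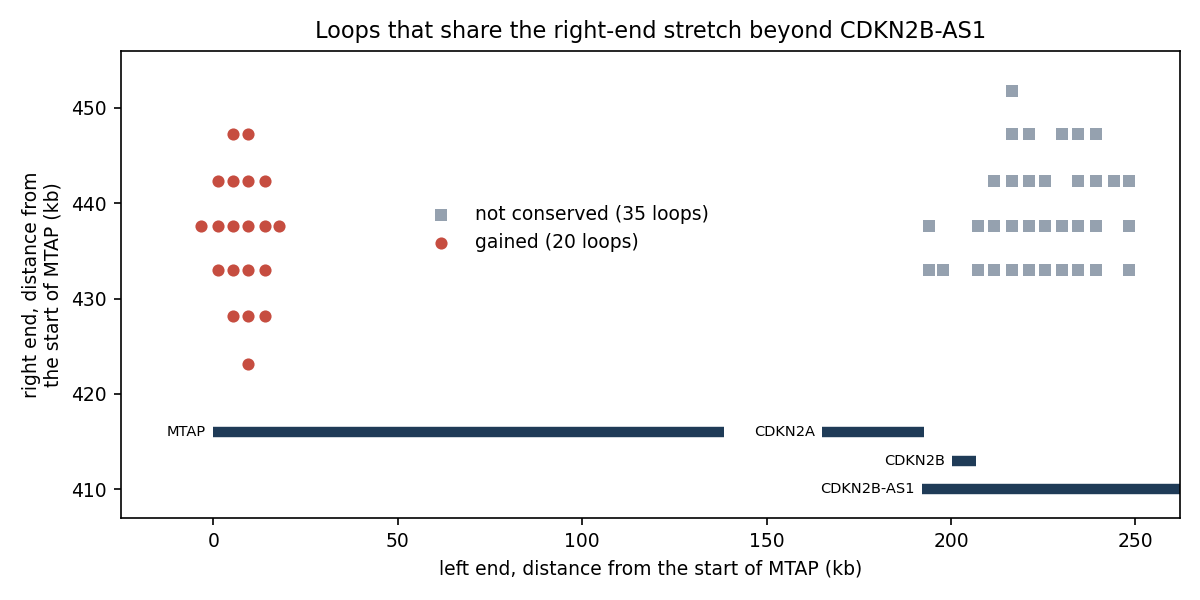
Each point is a listed loop, placed by its left end (horizontal) and right end (vertical), both in kb from the start of MTAP; red circles are gained and grey squares not conserved loops, and bars mark gene bodies (CDKN2B-AS1 continues past the right edge). The 20 gained loops form a patch over the 5' part of MTAP, and the 35 loops that were not conserved lie over CDKN2B-AS1 at nearly the same right ends.

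CDKN2A had no listed loop of any class. This was not unusual in the list, since 50.6% of all 20056 protein-coding genes had none, and so did 54.3% of the 2963 genes of 20 to 35 kb, the length range that includes CDKN2A (27.6 kb). The upstream start of CDKN2A, at 21995324, lay 1.30 kb from the nearest listed end and the downstream start, at 21974857, lay farther inside the gene, away from any listed end. CDKN2A lay between the ends of 20 listed loops, all of them gained loops of MTAP. Absence from the list does not show that contacts are absent, because the thresholds behind the list are not given.

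CDKN2B had 1 listed loop, which was not conserved. It ran from 22000473 to 22235635, over 235 kb, and its left end overlapped 2.57 kb of the gene. Its right end was also used by 4 gained loops of MTAP. CDKN2B lay between the ends of 22 loops, 20 gained ones from MTAP and 2 that were not conserved. The start of CDKN2B (22009305) lay 0.714 kb from the nearest listed end. Ends on both sides came close to the 5 kb rule without meeting it. The left end at 21996622 stopped 1.28 kb short of the gene and the one at 22010019 began 0.706 kb past it, with 2 loops each, all not conserved. At MTAP, the loop just inside the rule was the gained one at 21799199, which overlapped the gene by 1.56 kb. Just outside it, 2 loops that were not conserved had right ends at 21799198, 3.44 kb before the gene.

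Loops of both classes shared right ends beyond CDKN2B-AS1 but not left ends. CDKN2B-AS1 (chr9:21994791-22128142) had 35 listed loops, and 0 of them were gained (exact 95% interval 0 to 10.0%, counting error only) or lost. Over the whole list 1.96% of loops were gained and 0.196% lost. The 35 loops share ends, so they are not independent, although the interval treats them so. They left from 12 positions between 21996622 and 22050897, and 34 led to right positions of the MTAP loops, the other one to the next position, 22254439. In total 54 loops ended at these 6 right positions. The 20 that started at MTAP were gained, and the 34 that started at CDKN2B-AS1, among them the loop of CDKN2B, were not conserved. At 22240263, 6 gained loops met 10 that were not conserved, and at 22235635 there were 4 and 11. At 22244927 there were 4 and 8, and at 22249870 there were 2 and 5. At 22225814 and 22230796 only gained loops were listed. A right position that holds both classes was common in the list: of 2591 right positions with a gained loop, 73.4% also had a loop that was not conserved. Of 2543 left positions with a gained loop, 76.3% also had one that was not conserved. Left positions with gained loops and none that were not conserved, as at MTAP, were thus the less common case.

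Gained loops also ended just before MTAP. Another 8 gained loops joined positions 21449407 to 21473504 with 21790258 and 21794317, which lie 12.4 and 8.32 kb before the start of MTAP. They were 321 to 345 kb long. Their left ends lay at or beside the 3' end of MIR31HG (chr9:21454268-21559798, minus strand), the host transcript of the microRNA gene MIR31, and all 8 counted at that gene. The other 6 of the 14 listed loops at MIR31HG were not conserved. Only 4.88 kb separated the last right end of this group from the first left end of the MTAP loops, so gained loops on either side had neighbouring ends near the start of MTAP. The start itself was crossed by 1 listed loop, the gained one from 21799199. A low number is common, since 45.3% of 22132 protein-coding gene starts were crossed by 1 listed loop or none.

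The stretch before MTAP held other loops as well. In the 25 kb before its start, 24 loops that were not conserved had right ends, next to the 8 gained ones. They came from nearer left ends, at 21555333 to 21696505, and were 85.0 to 230 kb long with a median of 108 kb. The gained ones had a median of 329 kb, and the lengths did not overlap. The position 21794317 alone received 6 gained loops from MIR31HG and 4 loops that were not conserved from the region between the genes. The right side showed the same order, with 414 to 442 kb for the gained loops of MTAP and 185 to 244 kb for the loops of CDKN2B-AS1. On both sides the right ends are nearly the same, so the lengths restate where the left ends lie and add no separate observation. Longer gained loops at a shared end were not the general rule. Among 1902 right positions with both classes, the median gained loop was the longer in 54.4%, and among 1940 left positions in 60.9%. These shares compare medians at single positions. How often lengths do not overlap at all was not counted over the list, so the separation here has no background value.

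**Figure D2:**
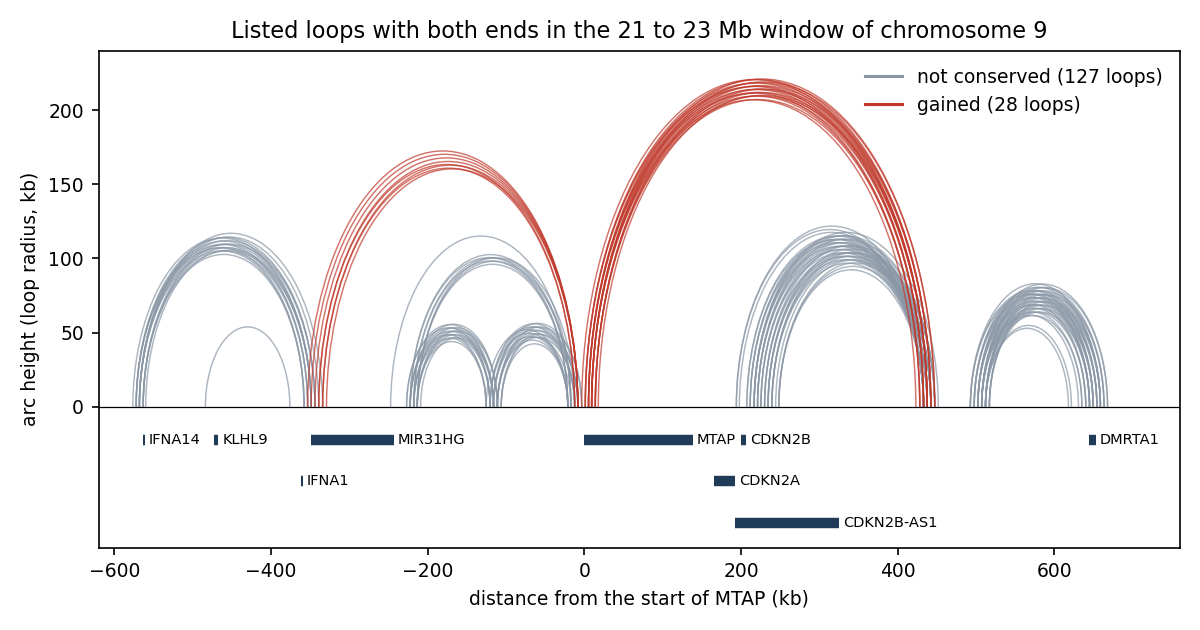
Arcs join the ends of each of the 155 listed loops with both ends between 21 and 23 Mb of chromosome 9, against distance from the start of MTAP in kb; arc height is the loop's radius, red is gained, grey is not conserved, and bars are gene bodies. The 28 gained loops form 2 bundles with neighbouring ends near the start of MTAP, and the longer bundle arches over CDKN2A and CDKN2B.

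In the window from 21 to 23 Mb, 28 of 155 listed loops were gained, or 18.1% (exact 95% binomial interval 12.4% to 25%, counting error only), and 0 were lost. These 28 were the 20 of MTAP, which formed 1 region, and the 8 that ended before it, which formed another. Loops of a region share ends, so they are not independent, although the interval treats them so. The rest of chromosome 9 had 116 gained and 40 lost among 12760 listed loops, a gained share of 0.909%. Without the loops of MTAP the window's share was 5.93%. The window was centred on genes picked for gained loops, so a high share follows from the choice. Of its 21 protein-coding genes 6 had a listed loop, and 1 of these 6, MTAP, had a gained loop. Over the list 12.7% of the 9909 protein-coding genes with a listed loop had a gained one. A count of 1 of 6 is too small to set the window apart.

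The MTAP region was large among gained regions. Of 1337 gained regions in the list, 98.2% had fewer loops than its 20, and the median was 2. None of the 41 gained regions on chromosome 9 had more. The locus was chosen for its gained loops, so this rank is a description and no support. In 3 of the 24 regions with 20 or more gained loops, that of MTAP included, every listed loop between the end stretches was gained. The same held for 22 of the 116 regions with 10 or more, or 19%. The 20 loops were longer than the median gained loop (300 kb, middle 50% from 159 to 507 kb) and lay within that range. For the not conserved class the median was 233 kb, and the 35 loops of CDKN2B-AS1 lay near it at 216 kb.

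**Figure D3:**
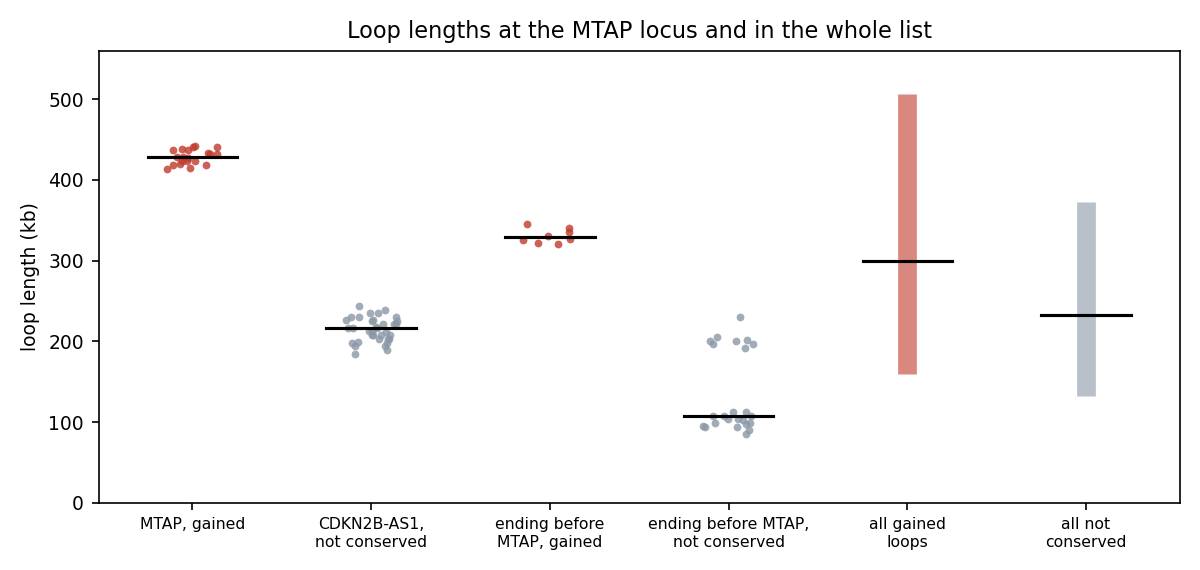
Loop length in kb; in the 4 left columns each point is a loop and the line the median, and in the 2 right columns the bar spans the middle 50% of loops and the line is the median. Ending before MTAP means a right end in the 25 kb before its start. Both gained groups at the locus (414 to 442 and 321 to 345 kb) lie above the groups that share their end stretches and were not conserved. This order follows from their more distant left ends.

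Few genes resembled MTAP in having nearly all of their loops gained. Likeness was measured as the gained share among the 6114 protein-coding genes with 10 or more listed loops, of which 83.5% had no gained loop. At 39 of them 50% or more of the listed loops were gained. MTAP was chosen for this share, so its place at the top follows from the choice and is a description. All listed loops were gained at 2 of them, or 0.0327%, MTAP and CDC73, a component of the PAF1 transcription elongation complex with 11 loops of 204 to 229 kb. VEGFC, a growth factor for lymphatic vessels, followed with 10 of 11, the matrix proteoglycan gene VCAN with 24 of 27, the alpha-tubulin gene TUBA3C with 25 of 30 and PREPL, a prolyl endopeptidase-like hydrolase gene, with 9 of 11. TUBA3C has near-identical copies, and the part of read mapping in its loops was not tested. At each of these genes the gained loops formed 1 region. VCAN loops were longest, at 1195 to 1232 kb, and VEGFC loops, at 390 to 409 kb, were nearest in length to those of MTAP. MTAP had fewer loops than the median of 28 over the 1176 genes of 100 to 200 kb with a listed loop.

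**Figure D4:**
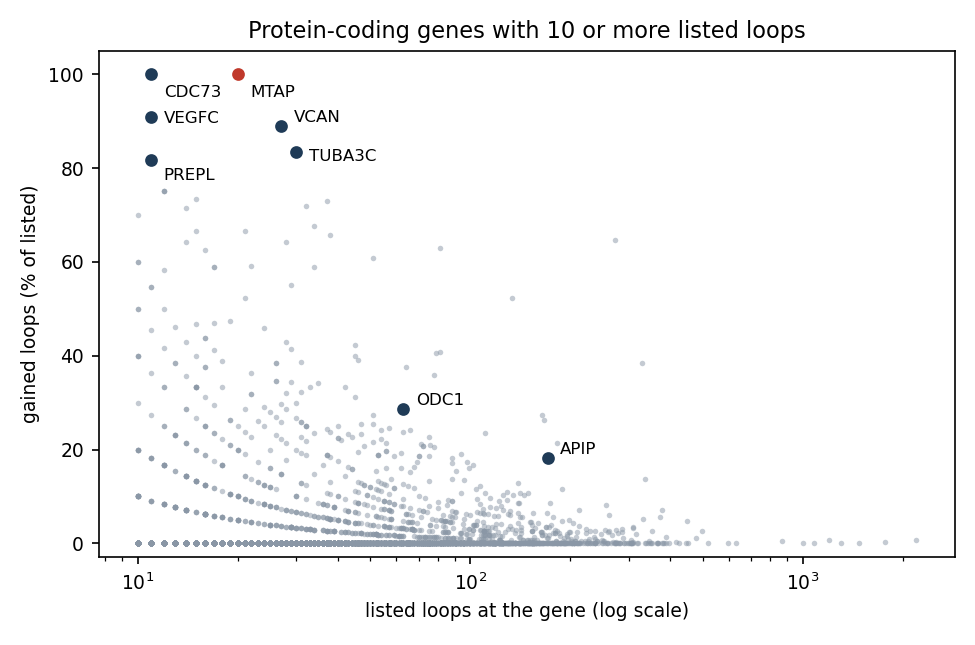
Each point is a protein-coding gene with 10 or more listed loops, with the number of listed loops on a log axis and the percentage of them gained; red is MTAP, and dark blue marks the other genes named in the text. MTAP and CDC73 are the 2 genes at 100%.

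APIP and ODC1 had gained loops among other genes of methionine salvage, methylation and polyamine synthesis. Of 15 such genes, 10 had a listed loop, 2 of these had a gained one and 0 a lost one, where 12.7% of the 9909 protein-coding genes with a listed loop had a gained and 1.85% a lost one. These counts are too small to set the list apart. APIP encodes a dehydratase that acts later than MTAP in methionine salvage. It had 31 gained of 171 listed loops, 405 to 477 kb long and in 2 regions, and 18 of these ended at ELF5 and 9 at the catalase gene CAT. ODC1, the first enzyme of polyamine synthesis, had 18 gained of 63, all with an end at NOL10. MRI1 (13 listed loops) and ENOPH1 (2), further salvage enzymes, had no gained loop. Neither did MAT2A (13), which makes S-adenosylmethionine, or PRMT5 (6), the arginine methyltransferase that the substrate of MTAP inhibits.

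No gene of the CDK inhibitor and G1 control list shared the pattern. Of its 20 genes 9 had a listed loop, and 0 had a gained or lost one. CDKN2D, a p16 family member, had 12 listed loops, and the related inhibitors CDKN1B and CDKN1C had 12 and 71. The kinase genes CDK4 and CDK6, whose products p16 binds, had 1 and 16, and the cyclin genes CCND1, CCND2 and CCND3 had 88, 42 and 97. Among 17 Polycomb and architectural genes, 10 had a listed loop and 1 a gained one, STAG1, a cohesin subunit gene, with 2 of 15. CBX7, the Polycomb protein known to bind ANRIL, had 62 listed loops and 0 gained. Against the background of 12.7%, counts of 0 of 9 and 1 of 10 are too small to set either list apart.

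At the level of gene starts, of 6478 protein-coding gene starts inside a listed loop end, 4.17% had at least 1 gained loop there. At MTAP this was the loop from 21799199 to 22240263, 441 kb long. The start of DMRTA1 had 6 listed loops and 0 gained.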

How the data were processed

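The loop table was deposited by the authors as positions and class words with no header. The file's name gives the build as hg38, and the submitters' processing notes name Bowtie, hg19 and hg38 without their roles. The loop caller, its thresholds and any normalisation were not given in the sources used here. Of 279669 rows, 49 had a number fragment in place of a class word and 2 were repeats, and these were left out. Positions were read as counted from 1. Gene bodies, starts and promoters came from RefSeq tables of GRCh38.p14, which give no exons, so exon, intron or UTR was not assigned. Overlaps were computed in Python 3.11.15 with pandas 2.3.3, and intervals with scipy 1.17.1 (exact Clopper-Pearson). Counting and joining were tested on simulated data. With 1 library per group no test between groups was possible.

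The 6 columns of per-sample values in the compartment table are headed S1, S2 and S3, which match no sample label, so compartment scores were not used. The genes and lists were chosen with earlier results of these data known. Named genes were the members, genes at their loop ends or in the window, the 5 genes nearest MTAP in gained share and the lists, with the type I interferon genes among them.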

Additional observations from a re-analysis of the deposited data

How the results depend on the processing

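Of 63 alternative values, 52 stayed within 1.5 times the count or within the 95% interval of the share or median, and 11 did not. Some of the 52 could not have moved. Every loop at the 3 genes was longer than 100 kb, so keeping only loops of 100 kb or more changed nothing there. Keeping repeats put back only 2 rows of the list. The tally is therefore not a measure of how robust the results are. Gained loops at MTAP numbered 19 to 20 under all 6 other readings of ends, genes and rows, and their median length was 428 kb in each. The gained share of loops at the 3 genes was 95.2%. It was 100% when only the listed base counted as an end, and 66.7% with 5 kb added to each gene, where MTAP, CDKN2A and CDKN2B had 22, 2 and 8 listed loops and the added ones were not conserved. CDKN2B had 3 listed loops with 10 kb ends and 0 with the listed base alone. The gained share of the window was 11.9% from 20 to 24 Mb and 5.93% without the loops at MTAP, the latter added after seeing the data, as was the reading of ends up to the next listed position. Genes with all loops gained numbered 11 of 7717 with at least 5 listed loops. With at least 20, which is the count of MTAP itself, it was 1 of 4182, MTAP. The background share was 1.11% on chromosome 9 alone. The compartment alternative was not run. No paired analysis was possible because the groups hold a single library apiece.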

Other observations

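Interferon genes and DMRTA1 had listed loops in the not conserved class. This is the usual class, with 273577 of the 279618 listed loops, so it does not set these genes apart. The type I interferon genes, which encode antiviral cytokines, and KLHL9 made a list of 18 genes. Most lie on the far side of MIR31HG from MTAP, but IFNE lies inside MIR31HG and IFNK outside the window of 21 to 23 Mb. Of the list, 4 genes had a listed loop and 0 a gained or lost one, too few to set against the 12.7% and 1.85% over all genes with a listed loop. IFNA14 had 10, IFNK 4, IFNA1 3 and IFNA17 1. The IFNA genes have near-identical paralogs, and the part of read mapping in their loops was not tested. A group of 16 loops, 205 to 234 kb long, ran from 21226239 to 21242725 near IFNA17 and IFNA14 to right ends at 21444874 to 21468539, the stretch from which the gained loops towards MTAP left. On the other side, 36 loops of 106 to 166 kb lay past the right ends of the MTAP loops, and 17 of them had an end on DMRTA1. MIR31 itself had no listed loop end.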
